A study of Mus musculus with 6 samples.

Results

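The genes described here encode heat shock proteins, the stress-inducible ubiquitin Ubb and proteins of the unfolded protein response (UPR), measured in hematopoietic stem cells (HSCs). They are 45 named genes of the 27198 in the deposited expression table, and all 45 were found by symbol. By where their proteins act, 21 belong to the cytosolic heat shock system, 3 to mitochondria, 1 encodes ubiquitin and 20 belong to the endoplasmic reticulum (ER). Counts were sufficient to test 44 of them. Hspb1, which encodes a small heat shock protein, had 4 to 13 counts per library and was not tested. The 45 genes were chosen by name with the fold changes and tests of the same l-FA against Ctrl comparison known, so how many of them changed is a description that supports nothing further.

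RNA was sequenced from HSCs of vehicle-treated mice (Ctrl) and of mice under long-term treatment with ferulic acid (l-FA), a phenolic acid of plants, with 3 libraries per group. All mice were wild type male C57BL/6 mice aged 8 to 10 weeks. Ferulic acid was injected into the peritoneum daily, at a dose of 50 mg/kg over 30 days, and Ctrl mice were given the vehicle. HSCs were sorted from bone marrow as Lineage-, Sca-1+, c-Kit+, CD34- and Flk2- cells, and their cDNA was amplified before sequencing. How many mice or cells went into each library, and whether the 3 libraries of a group came from separate mice, is not stated, so n counts libraries and the p-values measure the spread between these libraries, which may be technical.

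Libraries held 19287735 to 20380610 counts over 22467 to 22954 detected genes. RNA of the sort markers Kit and Ly6a (Sca-1) was present in every library. So was RNA of Cd34, at 25402 to 32430 counts, and of Flt3 (Flk2), at 14232 to 24368 counts, although the sort took cells negative for both surface proteins. Of the lineage markers given here, Cd3e (0 to 10 counts) and Ly6g (0 to 8 counts) were low, while Itgam (Mac-1) had 771 to 1395 counts and was higher in l-FA HSCs (log2 fold change 0.50). Of all 16520 genes tested, 50.5% passed the threshold in either direction, 25.0% were lower and 25.5% were higher in l-FA HSCs, which is the background for each count below. The threshold was an adjusted p below 0.05 in the quasi-likelihood test of edgeR, with Benjamini-Hochberg adjustment over all genes tested, and every adjusted p below comes from it.

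Chaperones hold unfolded proteins and help them fold. In the cytosol, heat shock factors raise the genes of the HSP70, HSP90 and HSP110 machines, of the J proteins that deliver clients to HSP70, and of ubiquitin, which marks damaged proteins for the proteasome. In the ER, the sensors Atf6, Ern1 (IRE1) and Eif2ak3 (PERK) respond to unfolded protein, and Atf6 and the spliced form of Xbp1 raise the genes of Hspa5 (BiP), Hsp90b1 (GRP94), the disulfide isomerases and ER-associated degradation. HSCs make protein at a low rate compared with other marrow cells and are known to be sensitive to disturbed protein folding.

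The DNA letters that these 2 systems are known to read mark a part of both gene groups. The ER stress element, read by Atf6 and Xbp1 with NF-Y, was searched as CCAAT and CCACG with 9 bases of any kind between them, on both strands. The heat shock element, read by the heat shock factors, was searched as 3 alternating units GAA and TTC with 2 bases between units, on both strands. Windows ran from 250 bases before to 50 bases after each RefSeq gene start in GRCm38.p6, and 37 of the 45 genes had one. No window was at hand for Atf6, Hsf1, Hsp90aa1, Hsp90ab1, Hspa8, Hspa9, Hyou1 and Manf. The ER stress element stood in 7 of 17 ER genes with a window (41.2%), in 0 of 17 cytosolic genes, and in 37 of 27025 genes overall (0.137%). The following stretches show the element in the 7 ER genes, each read 5′ to 3′ on the strand of its gene, with the letters of the element in capitals. Whether the element has a part in any change of these genes was not tested. ATTGG and CGTGG are CCAAT and CCACG on the opposite strand, and Hsp90b1 holds the element at 2 places.
Hspa5, chr2:34772005-34772063, plus strand: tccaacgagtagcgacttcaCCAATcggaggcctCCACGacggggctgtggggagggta
Hsp90b1 (distal), chr10:86705618-86705676, minus strand: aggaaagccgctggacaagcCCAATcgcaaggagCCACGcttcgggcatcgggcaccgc
Hsp90b1 (proximal), chr10:86705513-86705571, minus strand: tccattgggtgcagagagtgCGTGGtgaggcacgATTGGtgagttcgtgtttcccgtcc
Calr, chr8:84847055-84847113, minus strand: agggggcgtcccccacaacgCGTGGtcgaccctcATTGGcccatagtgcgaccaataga
Canx, chr11:50325780-50325838, minus strand: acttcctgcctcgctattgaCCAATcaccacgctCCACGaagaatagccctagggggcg
Pdia6, chr12:17266471-17266529, plus strand: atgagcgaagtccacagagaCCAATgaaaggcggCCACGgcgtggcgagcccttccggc
Dnajc3, chr14:118937807-118937865, plus strand: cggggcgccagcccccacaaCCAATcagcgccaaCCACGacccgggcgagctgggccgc
Creld2, chr15:88819500-88819558, plus strand: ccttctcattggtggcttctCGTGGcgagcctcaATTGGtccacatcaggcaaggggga

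The heat shock element stood in 2 of 17 cytosolic genes (11.8%; Dnajb6 and Hsph1), in both mitochondrial genes with a window (Hspd1 and Hspe1), in 0 of 17 ER genes, and in 179 of 27025 genes overall (0.662%). Hspd1 and Hspe1 lie head to head, and the same stretch between them serves both windows. It is shown with that of Dnajb6 as an example of the element, again with its letters in capitals. The stretch of Hsph1 is not printed. Hsph1 had the largest fall of the cytosolic group (log2 fold change −0.97), while Dnajb6 (−0.16) did not pass the threshold. The absence of a match says only that these letters are not in a window.
Hspd1 and Hspe1 (read on the strand of Hspd1), chr1:55088039-55088096, minus strand: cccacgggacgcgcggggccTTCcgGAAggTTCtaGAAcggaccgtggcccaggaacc
Dnajb6, chr5:29735832-29735884, plus strand: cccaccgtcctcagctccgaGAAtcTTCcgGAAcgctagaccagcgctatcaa

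Of the 44 genes tested, 30 were lower and 5 were higher in l-FA HSCs, and 9 did not pass the threshold. The ER genes held the larger differences. Of 20 ER genes, 15 were lower, 1 was higher (Dnajb9) and 4 did not pass (Atf6, Ern1, Herpud1 and Sel1l), and their median log2 fold change was −0.63. Of 20 cytosolic genes tested, 12 were lower, 3 were higher (Hsf2, Dnajb1 and Dnajb4) and 5 did not pass (Hspa1a, Hspa2, Hspa4l, Dnajb6 and Bag3), with a median of −0.24. The ER median lay 0.38 below the cytosolic median on the log2 scale, while the median of all genes tested was 0.003.

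The 3 l-FA libraries gave nearly the same picture one by one. Against the mean of the Ctrl libraries, the median ER gene stood at −0.67, −0.61 and −0.62 on the log2 scale in l-FA 1, 2 and 3, and at 0.001, 0.019 and −0.009 in Ctrl 1, 2 and 3. The median cytosolic gene stood at −0.27, −0.25 and −0.26 in the l-FA libraries and between −0.026 and 0.015 in the Ctrl libraries. In 15 of 20 ER genes every l-FA library lay below every Ctrl library, and in 2 (Dnajb9 and Atf6) every l-FA library lay above. The cytosolic genes had 12 and 3 such cases among 20. Over all genes tested, 29.9% had every l-FA library below and 30.4% had every l-FA library above.

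**Figure D1:**
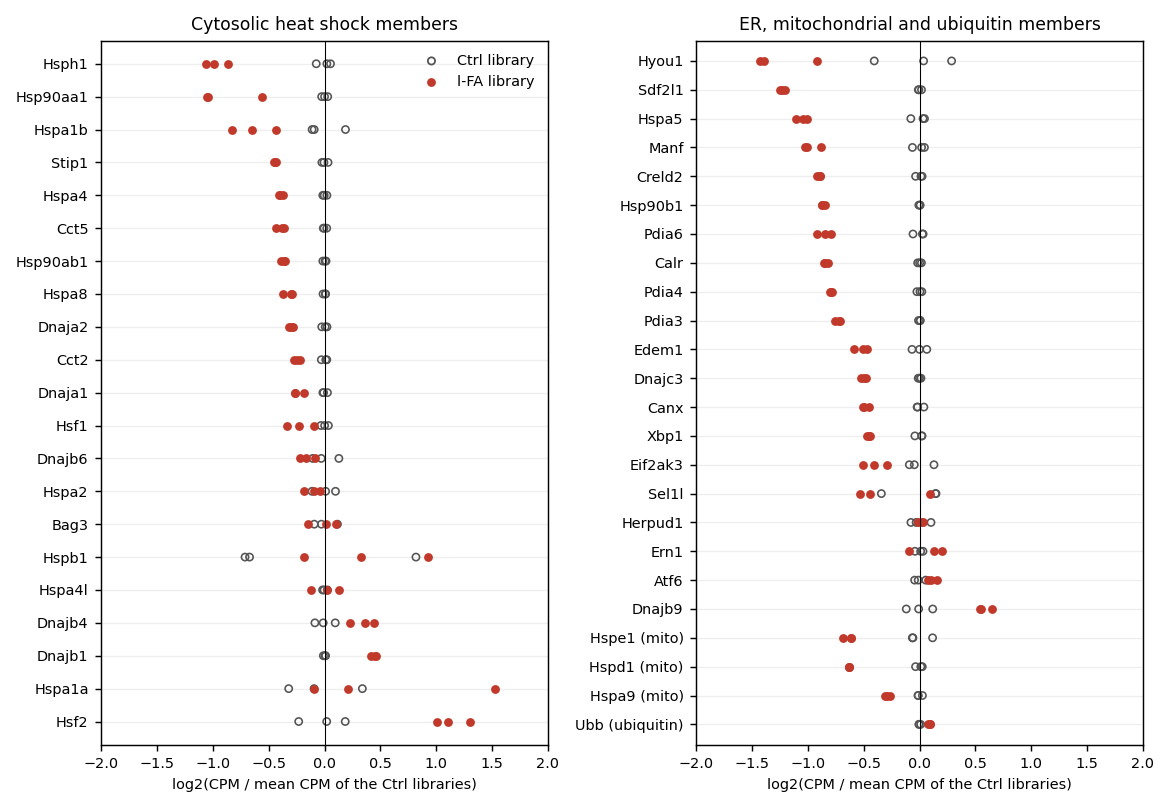
Each of the 45 genes in each library, as log2 of its TMM-normalized CPM (counts scaled to library size) over its mean in the 3 Ctrl libraries, with open circles for Ctrl and filled circles for l-FA libraries. Most ER genes (right) sit left of 0 with no overlap between groups, while the cytosolic genes (left) spread from Hsph1 at −0.97 to Hsf2 at 1.14 in fitted log2 fold change; Hspb1 is plotted but was not tested.

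Many of these genes are abundant, and abundant genes were more often lower in this comparison. Among the 2669 genes with a mean of at least 100 CPM, 41.7% were lower, 24.1% were higher and the median log2 fold change was −0.08. The ER group had 13 genes at that level, of which 11 were lower and 0 were higher, with a median of −0.79. The cytosolic group had 12, of which 10 were lower and 1 was higher, with a median of −0.34.

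Summed over genes, the ER group took 8973, 9061 and 8825 CPM in Ctrl 1, 2 and 3 and 5314, 5432 and 5448 CPM in l-FA 1, 2 and 3. The l-FA mean was 60.3% of the Ctrl mean. The cytosolic group took 7452, 7479 and 7327 CPM in Ctrl and 5657, 5756 and 5896 CPM in l-FA libraries, 77.8% of the Ctrl mean. Both sums were below the Ctrl range in all 3 l-FA libraries, and the ER group went from the larger sum of the 2 groups to the smaller. A sum weighs abundant and long genes most: 5 genes (Calr, Pdia3, Hspa5, Hsp90b1 and Pdia6) made up 69.5% of the ER difference, and 5 (Hsp90ab1, Hsp90aa1, Cct5, Hspa8 and Stip1) made up 85.8% of the cytosolic difference. In bulk RNA, fewer cells of a type and less RNA per cell cannot be told apart.

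**Figure D2:**
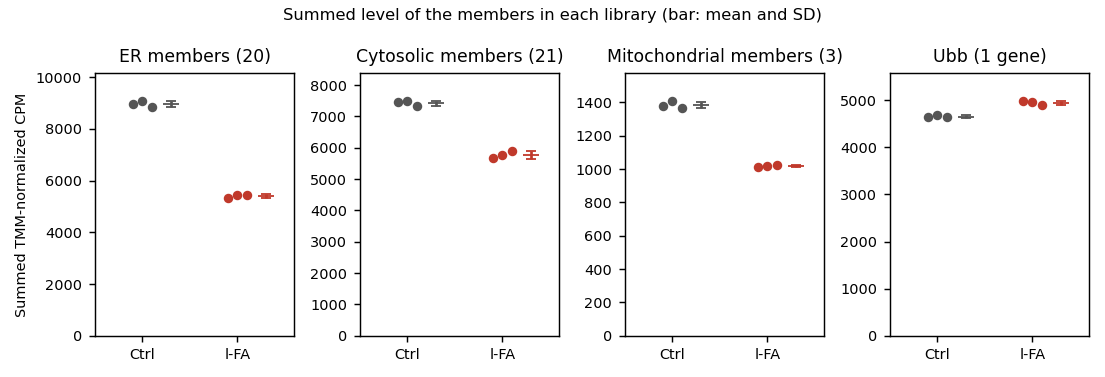
Summed TMM-normalized CPM of the ER, cytosolic and mitochondrial genes and of Ubb in each library (points), with the mean and SD of 3 libraries per group beside them. The ER sum fell from 8953 ± 119 to 5398 ± 73.2 and the cytosolic sum from 7419 ± 81.2 to 5770 ± 120, the mitochondrial sum was at 73.5% of Ctrl, and Ubb was at 4653 ± 27.4 and 4943 ± 44.4.

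The lumenal chaperones of the ER and their partners were the most changed role, with 7 of 8 lower, 1 higher and a median log2 fold change of −0.94. Hspa5 (ENSMUSG00000026864, chr2:34661982-34667559 in the deposited table) encodes BiP, the HSP70 of the ER that also keeps the sensors silent. It stood at 978, 987 and 907 CPM in Ctrl and at 464, 444 and 475 CPM in l-FA libraries. The groups were far apart, with l-FA at 48.1% of Ctrl (log2 fold change −1.05 ± 0.041 (SE, n = 3), edgeR adjusted p = 1.2e-05). Its promoter stretch with the ER stress element is the first one printed above.

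Sdf2l1 (ENSMUSG00000022769, chr16:16948002-16950247) encodes an ER protein that works with BiP and its J proteins. Ctrl libraries had 308, 309 and 314 CPM and l-FA libraries 132, 135 and 130 CPM. Each group was tight, and the log2 fold change was −1.23 ± 0.025 (SE, n = 3; edgeR adjusted p = 1.44e-06). Hyou1 (ENSMUSG00000032115, chr9:44290787-44303666) encodes the large HSP70 relative of the ER, which exchanges nucleotide on BiP. It ran at 92.7, 77.9 and 57.3 CPM in Ctrl and at 28.2, 40.1 and 28.8 CPM in l-FA libraries. The groups did not overlap, but both were wide, and the same log2 fold change of −1.23 carried an SE of 0.21 (edgeR adjusted p = 0.00308). With Hspa5, these were the 3 genes that were lower by more than 2-fold, against 5.1% of all genes tested.

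Hsp90b1, the HSP90 of the ER, was at 55.0% of Ctrl with a log2 fold change of −0.86. Manf and Creld2, small ER proteins known as targets of ER stress, had log2 fold changes of −0.97 and −0.90. Dnajc3, a J protein of the ER known to restrain Eif2ak3, had the smallest fall of the role at −0.50.

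Dnajb9 was the one ER gene of the 20 that was higher. It encodes ERdj4, a J protein that brings BiP to Ern1 and to clients of degradation, and lies at chr12:44252342-44257109 (ENSMUSG00000014905). Ctrl libraries had 32.4, 35.0 and 38.2 CPM and l-FA libraries 51.1, 55.3 and 51.6 CPM. All l-FA libraries were above all Ctrl libraries, at 150% of Ctrl (log2 fold change 0.58 ± 0.071 (SE, n = 3), edgeR adjusted p = 0.000771).

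The calnexin cycle and the disulfide isomerases, which fold glycoproteins and join cysteines in the ER, fell as a set of 5 out of 5, with log2 fold changes from −0.85 (Pdia6) to −0.49 (Canx) and a median of −0.79. Pdia3 (ENSMUSG00000027248, chr2:121244256-121269168) is the isomerase that works with Calr and Canx and had the highest level per length of the ER group. It stood at 1383, 1371 and 1386 CPM in Ctrl and at 814, 842 and 839 CPM in l-FA libraries. The l-FA libraries were at 60.3% of Ctrl (log2 fold change −0.73 ± 0.019 (SE, n = 3), edgeR adjusted p = 2.86e-06). Its listed interval overlaps Catsper2, and that of Pdia6 overlaps Atp6v1c2. Calr, the lumenal lectin, was at 55.8% of Ctrl, and its membrane-bound relative Canx at 71.3%.

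The sensors did not move together. Eif2ak3 (ENSMUSG00000031668, chr6:70821499-70882229), the kinase that slows translation under ER stress, was at 18.1, 18.7 and 21.1 CPM in Ctrl and at 14.5, 13.6 and 15.8 CPM in l-FA libraries. It was lower without overlap (log2 fold change −0.40 ± 0.092 (SE, n = 3), edgeR adjusted p = 0.0108). Xbp1 (ENSMUSG00000020484, chr11:5470659-5475893), the transcription factor whose RNA Ern1 splices, was at 213, 222 and 223 CPM in Ctrl and at 158, 160 and 162 CPM in l-FA libraries. It was also lower (log2 fold change −0.46 ± 0.028 (SE, n = 3), edgeR adjusted p = 5.83e-05). Counts per gene do not separate the spliced from the unspliced Xbp1 RNA.

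Atf6 (ENSMUSG00000026663, chr1:170532243-170695340), the sensor that is cut to a transcription factor, had 54.9, 58.8 and 56.2 CPM in Ctrl and 60.7, 63.0 and 59.5 CPM in l-FA libraries. The l-FA libraries lay above the Ctrl libraries by a small margin that did not pass the threshold (log2 fold change 0.11 ± 0.044 (SE, n = 3), edgeR adjusted p = 0.0821). Ern1 (ENSMUSG00000020715, chr11:106285476-106378678), the sensor with kinase and RNase activity, had 50.2, 50.9 and 48.4 CPM in Ctrl and 54.5, 46.8 and 57.3 CPM in l-FA libraries. The groups overlapped, with l-FA 2 the lowest of the 6 libraries (log2 fold change 0.08 ± 0.078 (SE, n = 3), edgeR adjusted p = 0.413).

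Of the 3 genes of ER-associated degradation, which returns misfolded proteins to the cytosol, Edem1 was lower (log2 fold change −0.52). Herpud1, a membrane part of the degradation complex, had a value of 0.01 and overlapping groups. Sel1l, the adaptor of the same complex, varied within both groups, at 133, 187 and 187 CPM in Ctrl and 124, 181 and 117 CPM in l-FA libraries, and did not pass the threshold (log2 fold change −0.27 ± 0.20 (SE, n = 3), edgeR adjusted p = 0.316).

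Among the cytosolic genes, the 2 heat shock transcription factors went opposite ways. Hsf1 (ENSMUSG00000022556, chr15:76361622-76386113), the main activator of the heat shock response, had 77.0, 75.2 and 73.5 CPM in Ctrl and 70.3, 64.2 and 59.6 CPM in l-FA libraries. It was slightly lower without overlap (log2 fold change −0.22 ± 0.064 (SE, n = 3), edgeR adjusted p = 0.0281). The call was lost when Ctrl 1, 2 or 3 or l-FA 2 or 3 was left out, with adjusted p between 0.0504 and 0.0873. Hsf2 (ENSMUSG00000019878, chr10:57362481-57389231), its relative with roles in development, had 2.35, 2.09 and 1.76 CPM in Ctrl and 4.43, 5.09 and 4.16 CPM in l-FA libraries. It was the one member higher by more than 2-fold, against 6.68% of all genes tested, at low counts of 35 to 102 per library (log2 fold change 1.14 ± 0.15 (SE, n = 3), edgeR adjusted p = 0.00118).

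**Figure D3:**
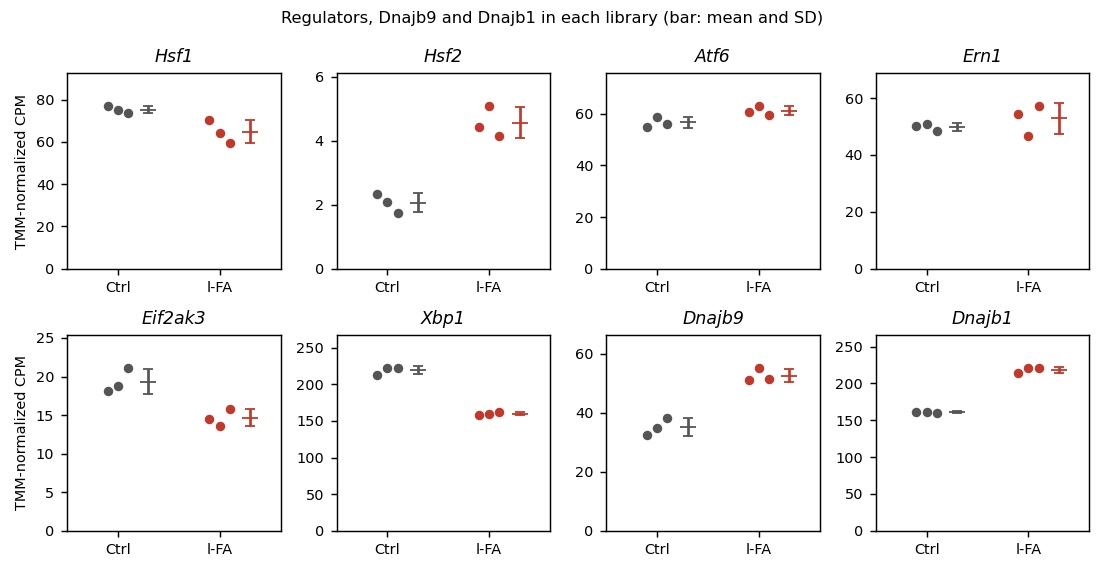
TMM-normalized CPM of 2 heat shock factors, the 3 ER sensors, Xbp1 and the J protein genes Dnajb9 and Dnajb1 in each library (points), with the mean and SD of 3 libraries per group; each axis starts at 0. Hsf1, Eif2ak3 and Xbp1 were lower and Hsf2, Dnajb9 and Dnajb1 higher in l-FA libraries, and the libraries of Ern1 overlapped.

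The HSP70 and HSP110 genes had 4 of 7 lower and 0 higher, with a median of −0.32. Hsph1 (ENSMUSG00000029657, chr5:149537752-149559841) encodes HSP110, which exchanges nucleotide on HSP70 and helps to dissolve aggregates. It stood at 146, 143 and 134 CPM in Ctrl and at 67.4, 71.0 and 77.3 CPM in l-FA libraries. This was the largest fall of the cytosolic group, to 50.9% of Ctrl (log2 fold change −0.97 ± 0.061 (SE, n = 3), edgeR adjusted p = 6.07e-05). The constitutive HSP70 gene Hspa8 (−0.32) and the HSP110 relative Hspa4 (−0.40) were lower too. Hspa8 holds the listed small nucleolar RNA genes Snord14c, Snord14d and Snord14e within its interval. Hspa2, an HSP70 gene best known from the testis, and Hspa4l had log2 fold changes of −0.11 and 0.01 and overlapping groups.

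The stress-inducible HSP70 genes Hspa1a and Hspa1b, nearly identical neighbours on chromosome 17, were barely detected. Hspa1a (ENSMUSG00000091971, chr17:35188166-35191132) had 13, 8 and 10 counts in Ctrl and 13, 31 and 10 in l-FA libraries. The groups overlapped and l-FA 2 alone was high (log2 fold change 0.72 ± 0.49 (SE, n = 3), edgeR adjusted p = 0.27). Hspa1b (ENSMUSG00000090877, chr17:35175412-35178214) had 62, 49 and 53 counts in Ctrl and 38, 32 and 42 in l-FA libraries. It was lower (log2 fold change −0.63 ± 0.17 (SE, n = 3), edgeR adjusted p = 0.0193), and the call was lost without Ctrl 1, l-FA 1 or l-FA 2, at adjusted p of 0.0587 to 0.067. How the counting shared reads between both copies is not given in the sources used here. Summed, they had a log2 fold change of −0.31 that did not pass the threshold (edgeR adjusted p = 0.162), which turns the sign of the Hspa1a value.

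Both HSP90 genes were lower. Hsp90ab1 (ENSMUSG00000023944, chr17:45878701-45884197), the constitutive form, stood at 2676, 2660 and 2623 CPM in Ctrl and at 2019, 2079 and 2065 CPM in l-FA libraries. It was at 77.4% of Ctrl (log2 fold change −0.37 ± 0.017 (SE, n = 3), edgeR adjusted p = 2.03e-05). Hsp90aa1 (ENSMUSG00000021270, chr12:110657039-110669162), the more inducible form, stood at 566, 555 and 545 CPM in Ctrl and at 269, 268 and 376 CPM in l-FA libraries. All l-FA libraries were below Ctrl, with l-FA 3 above the other two (log2 fold change −0.87 ± 0.13 (SE, n = 3), edgeR adjusted p = 0.00183). Stip1, the co-chaperone that bridges HSP70 and HSP90, was lower as well (−0.45), while Bag3, which links HSP70 to autophagy, had a value of −0.01 and overlapping groups.

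The J proteins of the cytosol went both ways. Dnaja1 (−0.24) and Dnaja2 (−0.30) were lower, Dnajb1 and Dnajb4 were higher, and Dnajb6 (−0.16) did not pass the threshold except without Ctrl 3, with 20.9% to 25.4% of the counts of gene and copy together in a listed copy. Dnajb1 (ENSMUSG00000005483, chr8:84334822-84339282), the classic heat-inducible HSP40, stood at 162, 161 and 160 CPM in Ctrl and at 214, 221 and 221 CPM in l-FA libraries. Both groups were narrow and apart, with l-FA at 136% of Ctrl (log2 fold change 0.44 ± 0.025 (SE, n = 3), edgeR adjusted p = 4.23e-05). Dnajb4 (ENSMUSG00000028035, chr3:151884148-151915939), a close relative, had 26.2, 28.2 and 24.9 CPM in Ctrl and 30.9, 34.0 and 36.0 CPM in l-FA libraries (log2 fold change 0.35 ± 0.078 (SE, n = 3), edgeR adjusted p = 0.0102). The CCT chaperonin, a ring that folds actin and tubulin, was represented by Cct2 (−0.25) and Cct5 (−0.39), both lower.

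The 3 mitochondrial chaperone genes were all lower, Hspa9 (mitochondrial HSP70) with a log2 fold change of −0.29 and the chaperonin pair Hspd1 and Hspe1 with −0.63 and −0.64. Hspd1 (ENSMUSG00000025980, chr1:55116994-55127402) stood at 628, 634 and 608 CPM in Ctrl and at 402, 402 and 403 CPM in l-FA libraries. The l-FA libraries were nearly equal to each other and at 64.5% of Ctrl (SE of the log2 fold change 0.022, n = 3; edgeR adjusted p = 7.53e-06). The listed intervals of Hspd1 and Hspe1 overlap, and listed copies of Hspd1 held 21.9% to 22.5% of the counts of gene and copies together.

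Ubb (ENSMUSG00000019505, chr11:62441997-62444039), which encodes a chain of ubiquitin units, had the smallest difference that passed. It stood at 4638, 4685 and 4637 CPM in Ctrl and at 4977, 4960 and 4893 CPM in l-FA libraries. The l-FA libraries were above Ctrl without overlap, at 106% of Ctrl (log2 fold change 0.09 ± 0.012 (SE, n = 3), edgeR adjusted p = 0.00126). Listed copies of Ubb held 25.9% to 27.1% of the counts of gene and copies together.

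Levels per gene length, as deposited FPKM without TMM scaling, spanned from Ubb at 1893 FPKM in Ctrl and 2123 in l-FA to Hsf2 at 0.155 and 0.362, Hspa1a at 0.176 and 0.307 and Hspb1 at 0.182 and 0.257. After Ubb came Hsp90ab1 (446 and 364 FPKM), Pdia3 (340 and 216), Calr (295 and 174) and Cct5 (241 and 193). Sdf2l1 followed in rank at 272 and 123 FPKM, having been above Cct5 in Ctrl HSCs. The 3 lowest genes included the heat-inducible Hspa1a and Hspb1, while constitutive chaperones of the cytosol and ER were among the highest.

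**Figure D4:**
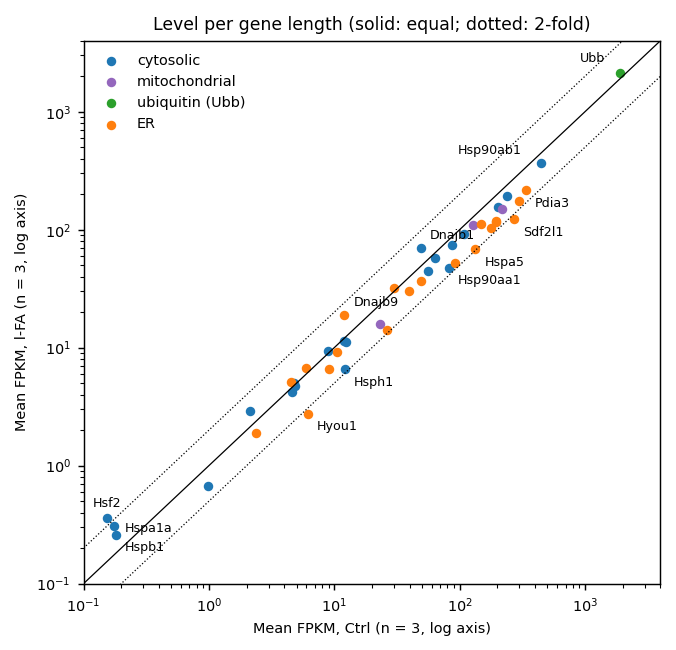
Mean deposited FPKM of each of the 45 genes in l-FA against Ctrl libraries (n = 3 each, both axes logarithmic), coloured by compartment, with a solid line of equal level and dotted lines of 2-fold difference. Ubb lies highest and close to the line, ER genes such as Hspa5, Sdf2l1 and Hyou1 lie near or past the lower dotted line, and Hsf2 lies past the upper one.

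Most members varied little between libraries of one group. In 38 of 44 genes tested, the highest library of each group was less than 1.25 times the lowest in CPM. The other 6 were Hspa1a, Hyou1, Sel1l, Hsp90aa1, Hsf2 and Hspa1b. With 3 libraries against 3, an exact permutation test of a single gene cannot go below p = 0.1, so none was used.

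Other genes of the same pathways were compared in the same fit, listed by function but with earlier results of these data known. Of 19 other ER chaperones and folding enzymes, 13 were lower and 2 were higher, with a median of −0.31. The largest fall was Fkbp11 (−1.32), a prolyl isomerase of the ER, and the largest rise was Wfs1 (0.73), an ER membrane protein. Dnajc10, an ER J protein with reductase activity, was the other higher gene (0.21), named after its value was seen. Of 11 other genes of ER-associated degradation, 5 were lower and 1 was higher, with a median of −0.15. The lower ones were led by Selenos (−0.42). The higher one, Derl3, rose from 8 to 10 counts in Ctrl to 29 to 60 counts in l-FA libraries (log2 fold change 2.08 ± 0.36 (SE, n = 3), edgeR adjusted p = 0.00335).

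Among 11 other regulators of the UPR, 3 were higher and 4 were lower, with a median of 0.07. Ddit3 (CHOP), a transcription factor of the Eif2ak3 branch, had 182, 171 and 218 counts in Ctrl and 369, 346 and 397 in l-FA libraries. It was higher without overlap (log2 fold change 0.89 ± 0.10 (SE, n = 3), edgeR adjusted p = 0.000566). Ppp1r15a (GADD34; 0.77), which restores translation, and Trib3 (0.35) were the other higher genes, and Asns (−0.97), the asparagine synthetase gene and a known target of Atf4, had the largest fall, with Chac1 (−0.95), Mbtps2 (−0.58) and Atf6b (−0.32) also lower. Atf4 itself had a value of 0.09 and did not pass the threshold, with Ctrl 3 at 985 counts and the other 5 libraries at 1653 to 1786. Ppp1r15a, Trib3, Chac1, Mbtps2, Atf6b and Atf4 were named after their values were seen.

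Of 23 other cytosolic chaperone genes, 15 were lower and 4 were higher, with a median of −0.24. Fkbp5, an HSP90 co-chaperone known as a glucocorticoid target, had the largest fall (−1.23), and the small heat shock gene Hspb8 the largest rise (0.83, at 19 to 60 counts). Of 12 other CCT and prefoldin subunits, 9 were lower, led by the CCT gene Tcp1 (−0.51), and 1 was higher (Pfdn5, 0.22), with a median of −0.37. Of 11 other mitochondrial chaperones and proteases, 9 were lower, led by Htra2 (−0.52), and 0 were higher, with a median of −0.25. The 6 lists of other genes given here had medians above that of the ER members. Among these 6, only that of the UPR regulators was above the median of all genes tested.

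The genes with the ER stress element printed above were read against their changes as a description. The 7 ER members with the element were all lower, with log2 fold changes from −1.05 (Hspa5) to −0.49 (Canx) and a median of −0.85. The 10 ER members with a window but no match had a median of −0.43 and a range from −1.23 (Sdf2l1) to 0.58 (Dnajb9), with 6 lower and 1 higher. The 2 sets differ in role. The 7 were all lumenal chaperones, their cofactors, or genes of the calnexin cycle and disulfide isomerases. The 10 also held sensors, Xbp1 and degradation genes. Of their folding genes, Sdf2l1, Pdia4 (−0.79) and Pdia3 (−0.73) were lower and Dnajb9 was higher. The parts of role and element were not tested. Of 14 genes outside the members that held the element and were tested, 5 were lower and 2 were higher (Derl3 and Pan2), with a median of −0.16. The 5 lower ones were Adcy3, Ero1b and the related genes Xlr3a, Xlr3b and Xlr3c. Of the 14, those in the ER lists above were Ero1b (−0.17, lower), Syvn1 (0.14, not past the threshold) and Derl3 (2.08, higher). Apart from Derl3, these genes were named after their values were seen. Of all 10609 genes tested with a window, 27.0% were lower and 28.3% were higher. Of the 4 members with the heat shock element, Hsph1 (−0.97), Hspd1 (−0.63) and Hspe1 (−0.64) were lower, and Dnajb6 (−0.16) did not pass the threshold. Outside the members, 60 genes with this element were tested, of which 18 were lower and 13 were higher, with a median of 0.04.

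Other gene lists moved in the same libraries. RNA of neutrophil and monocyte genes, among them the granule genes Mpo and Elane, was lower by more than 2-fold in 11 of 12 genes listed, and Csf1r was higher. Its summed level was 23391 to 24229 CPM in Ctrl and 5824 to 6151 CPM in l-FA libraries, 25.3% of Ctrl. None of the 12 was at 0 in every library. The part of these cells or genes in the lower ER members was not tested. Of 11 genes of B and plasma cells, 7 were tested, with 3 higher, led by Prdm1 (2.94), and 0 lower. The sum of the 11 was 108 to 175 CPM in Ctrl and 175 to 184 CPM in l-FA libraries. Ms4a1, not tested and named after its values were seen, had 7 to 13 counts in Ctrl and 0 in every l-FA library. Of 6 T and NK cell genes listed, 3 were tested, with 2 lower, led by Klrb1c (−1.54), and 1 higher (Cd4, 1.76). The sum of the 6 was at 56.1% of Ctrl, and such a sum weighs abundant genes most. Megakaryocyte genes had 3 of 6 higher and 0 lower, at 141% of Ctrl. Of 14 immediate early genes, which respond within minutes to handling as well as to signals, 10 were higher and 2 were lower, and their sum was 3552 to 4928 CPM in Ctrl and 8244 to 8395 CPM in l-FA libraries. Jun stood apart in Ctrl 1, at 2582 counts against 27356 and 29257 in Ctrl 2 and 3, and without Jun the sum was 3364 to 3462 CPM in Ctrl and 5598 to 5689 CPM in l-FA libraries. The part of the immediate early genes in the higher Dnajb1, Ddit3 and Ppp1r15a was not tested. HSC and progenitor markers were higher in 7 of 8 genes, Slamf1 most (1.90), and Hlf was lower (−0.31). The higher ones included Cd34 (0.23) and Flt3, whose surface proteins the sort selected against. The part of the cell mixture in the values of the members was not tested.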

How the data were processed

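The data were 6 RNA-seq libraries of amplified HSC cDNA, 3 per group. For each gene the authors deposited raw counts, which are whole numbers without normalization. The deposited FPKM were also computed by the authors and scale counts by gene length and depth. The submitters' processing notes name HISAT2, SAMtools 1.3.1, StringTie, edgeR and the build GRCm39, with no roles given; the paper names DESeq2. Coordinates of genes are those of the deposited table, and promoter windows are from RefSeq on GRCm38.p6. Whether counting used strand is not given in the sources used here, so reads of overlapping genes, which touch 13 of the 45 members, cannot be told apart.

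Groups were taken from the sample labels. The 45 members and all lists were chosen with earlier results of these data known. The test was the quasi-likelihood test of edgeR 4.0.16 under R 4.3.3 (filterByExpr, TMM scaling, glmQLFit, then glmQLFTest), and p-values were adjusted by Benjamini-Hochberg over 16520 genes, and SEs were derived from the log2 fold change and its F statistic. The common biological coefficient of variation was 0.134. CPM are counts scaled by library size and its TMM factor (a trimmed mean over genes). FPKM were averaged, with no test. On simulated counts of 16520 genes for this comparison, 172 of 200 genes changed by 2-fold were recovered (86%), 10 unchanged genes were called, and 0 were called when none was changed. The simulation changed equally many genes up and down at the common dispersion. In the data 50.5% of genes passed, so it does not check the scaling or the smaller changes reported here. Between libraries of one group the median chi-square per gene was 0.890 to 1.09, above the 0.455 of pure counting error, and part of this spread may be technical. Libraries held 19287735 to 20380610 counts. Molecular identifiers are not named in the sources used here, and without them counting error understates the error of amplified cDNA.

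Members named with values in every library were the regulators, Ubb, the pair Hspa1a and Hspa1b, the gene of highest FPKM in each compartment, those past 2-fold, and the 3 largest rises and falls among called genes in the cytosolic and the ER group. Other lists were named by their largest rise and fall, and lists with an item that is not reported here were left out. Sel1l was named with its libraries after its values were seen. Alternatives were RLE and upper-quartile scaling, DESeq2 1.42.0, other count filters, a replicate block, each library left out, a fold limit, summed copies and other groupings of members.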

Additional observations from a re-analysis of the deposited data

How the results depend on the processing

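Over all genes, 8336 passed (4205 higher, 4131 lower), and 7459 to 7733 did with 1 library left out. Requiring a fold change above 2 as well left 1946 genes (1103 higher, 843 lower), 1 cytosolic gene and 3 ER genes, by its own construction. With 1 library left out, 13 to 15 cytosolic and 16 to 17 ER genes passed, the cytosolic median ran from −0.25 to −0.22, the ER median from −0.64 to −0.59 and their difference from −0.41 to −0.37. Upper-quartile scaling gave a cytosolic median of −0.22. With the mitochondrial genes counted as cytosolic, that median was −0.29 and the difference −0.34. Without the sensors Atf6, Ern1 and Eif2ak3 the ER median was −0.79. Summing the copies turned Hspa1a to −0.31. Atf6 passed as higher under upper-quartile scaling (adjusted p = 0.0426) and Ern1 without l-FA 2 (adjusted p = 0.0373), Dnajb6 passed as lower without Ctrl 3 (adjusted p = 0.0439), and the cause was not tested. Of 45 members, 38 had the same call in all 13 alternative fits, and Hspa1a had in the 12 that tested it.

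The replicate numbers are shared by both groups but did not pair the libraries: deviations of libraries with the same number correlated at 0.011, −0.011 and −0.069. With the replicate block, 7405 genes passed, of which 7215 also passed without it, and 15 cytosolic and 16 ER genes passed, with medians of −0.24 and −0.63. Depth limits Hspa1a, Hspa1b, Hspb1 and Hsf2, which had the fewest counts of the members.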
